A study of Mus musculus with 9 samples.

Results

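The miR-143/145 cluster was described through 4 mature microRNAs (miRNAs), mmu-miR-143-3p and mmu-miR-143-5p from the precursor miR-143 and mmu-miR-145a-5p and mmu-miR-145a-3p from miR-145a, among the 1155 entries of a small RNA table from mouse colon. They were chosen by name, as both arms of the 2 precursors, and all 4 were among the 433 entries with enough reads to be tested. The table held 9 libraries from wild-type C57BL/6J mice. The DSS_RJA group (3 libraries) drank water with 2.5% (w/v) dextran sulfate sodium (DSS), an agent widely used to damage the colonic epithelium and bring on colitis in mice, and had royal jelly acid (RJA) daily by gavage, 10 mg/kg of body weight in 0.2 mL. The DSS group (3 libraries) drank the same DSS water, and the Control group (3 libraries) had normal diet and water. No gavage is recorded for the DSS and Control groups, so RJA and the gavage itself cannot be told apart. The labels give no age or length of treatment and do not say that the libraries came from separate animals, so every p-value below measures the spread between these libraries.

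Each miRNA precursor is a hairpin whose 2 strands, the 5p and the 3p arm, are cut out together; usually 1 arm is loaded into Argonaute as the guide that lowers the output of target messenger RNAs, and the other is mostly degraded. miR-143 and miR-145 are made from 1 primary transcript, which serum response factor and its partner myocardin switch on in smooth muscle, and miR-145 lowers Klf4 and Klf5, factors that hold smooth muscle cells in a less contractile state. In the mouse intestine the cluster is expressed in smooth muscle and other mesenchymal cells, and mice that lack it repair the colonic epithelium poorly after DSS injury. Both precursors lie on the minus strand of chromosome 18 in the GENCODE M21 annotation of GRCm38. Mir143 spans chr18:61649196-61649258 and Mir145a spans chr18:61647825-61647894, with 1301 bases between them. The long noncoding RNA gene Carmn, the host transcript of the cluster, ends 366 bases upstream of Mir143 in that annotation (chr18:61649625-61665537, minus strand), while in the RefSeq annotation of GRCm38.p6 it spans chr18:61645878-61665538 and so covers both precursors.

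miR-143-3p, the guide arm of miR-143, was the most abundant entry in all 9 libraries. It took 68.7, 71.1 and 71.8% of the reads in DSS_RJA, 68.3, 67.2 and 75.5% in DSS, and 70.9, 69.3 and 66.4% in Control. The 3 groups overlapped, and the highest library, DSS 3, held 1.14 times the share of the lowest, Control 3. The group means were 70.5 ± 1.61% in DSS_RJA, 70.3 ± 4.53% in DSS and 68.9 ± 2.30% in Control (SD, n = 3 each). No pair of groups could be separated. The exact two-sided permutation p was 0.8 for DSS against Control, and for DSS_RJA it was 0.9 against DSS and 0.4 against Control, where 3 libraries against 3 cannot give less than 0.1. Against the next most abundant entry, miR-143-3p had 7.89, 8.07 and 5.33 reads per read in DSS_RJA, 5.14, 5.43 and 10.9 in DSS, and 10.8, 9.09 and 7.03 in Control. After it, the entries with the highest mean shares were miR-21a-5p (9.69%), miR-192-5p (2.77%), miR-10a-5p (1.14%) and miR-200b-3p (1.08%).

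The other 3 arms were far below it. miR-145a-5p, the guide arm of miR-145a, was the 9th entry by abundance with a mean of 0.779% of the reads. miR-145a-3p was 57th with 0.0528%, and miR-143-5p, the lesser arm of the most abundant precursor, was 97th with 0.0141%. Together the 4 arms held between 67.0 and 76.8% of a library. Library totals ran from 5985153 to 8280980 reads, but with miR-143-3p set aside only 1740041 to 2538800 reads were left in a library for the other 1154 entries. The only other entry named for the cluster, miR-145b, whose gene lies elsewhere on chromosome 18 (chr18:69022199-69022273), had 4, 5 and 3 reads in DSS_RJA, 1, 2 and 11 in DSS and 2, 0 and 3 in Control, too few to be tested.

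The level of each arm was given on 2 scales. The deposited TPM are reads per 1000000 reads of the library. The second scale, CPM after TMM scaling, multiplies the library size by a factor that sets the bulk of the miRNAs level between libraries. The TMM factor averaged 1.01 ± 0.0994 in DSS_RJA, 1.14 ± 0.0418 in DSS and 0.879 ± 0.0193 in Control (SD, n = 3 each), and it did not overlap between DSS and Control, so the 2 scales differ between those groups for every miRNA. In bulk tissue, fewer cells of a type and less of the miRNA per cell cannot be told apart on either scale.

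**Figure D1:**
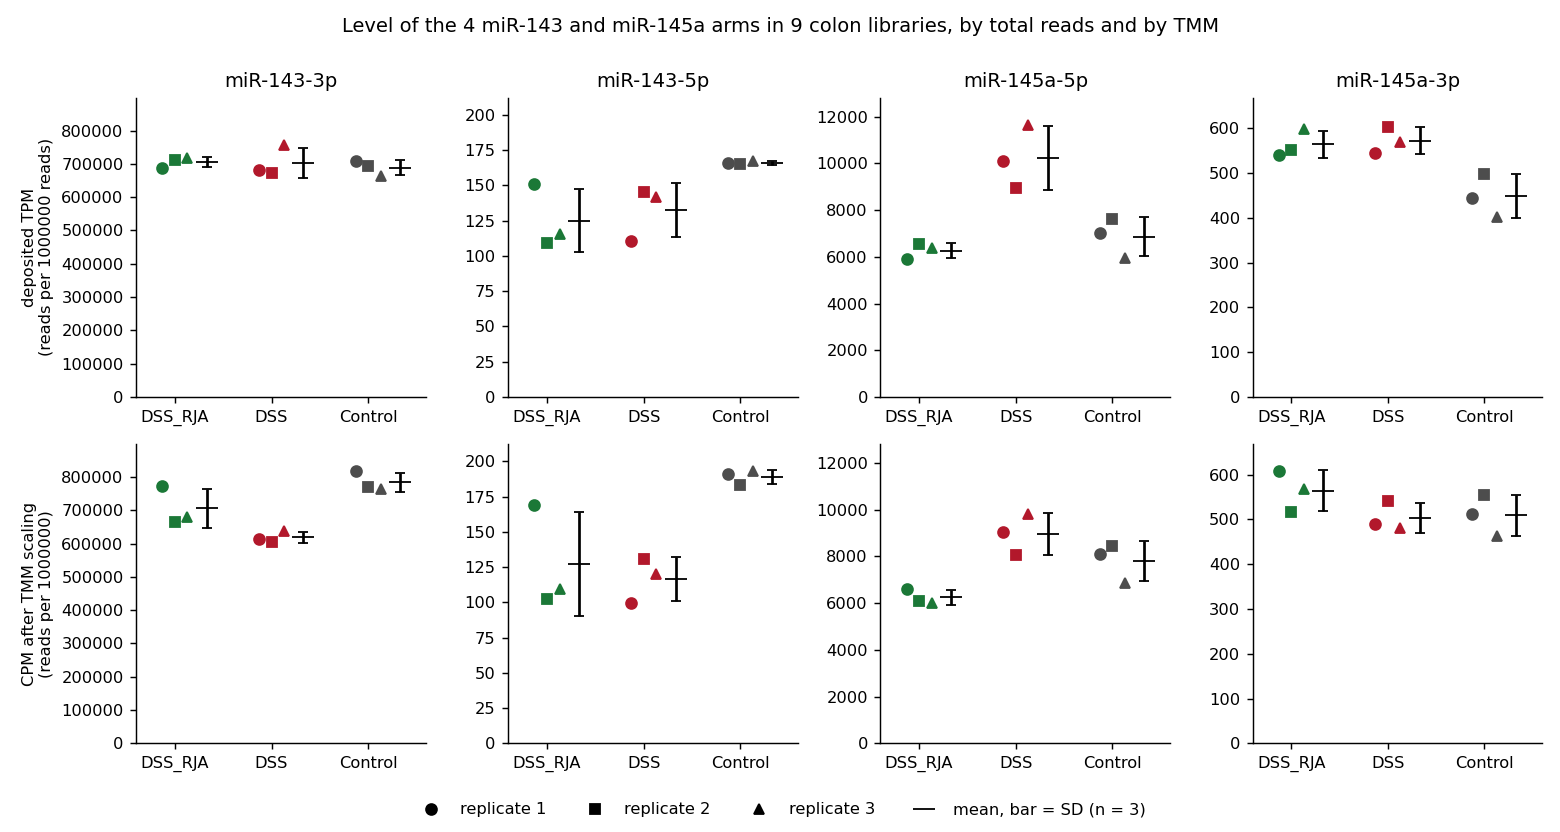
Level of the 4 arms in each library, as deposited TPM (top row) and as CPM after TMM scaling (bottom row), for DSS_RJA, DSS and Control; each point is 1 library and the bars are the mean and SD (n = 3). miR-143-3p does not separate the groups in TPM, whereas after TMM scaling the DSS libraries lie at 604296 to 637439 CPM, below the Control libraries at 764951 to 817102 CPM; miR-145a-5p in DSS lies above both other groups in TPM but overlaps Control after TMM scaling.

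On the TMM scale, miR-143-3p was at 771486, 664856 and 680284 CPM in DSS_RJA, 613268, 604296 and 637439 CPM in DSS, and 817102, 769675 and 764951 CPM in Control. All DSS libraries were below all libraries of the other groups, and DSS_RJA overlapped Control through its first library. The log2 fold change on this scale was -0.34 ± 0.13 (SE) for DSS against Control, with an adjusted p of 0.110 by edgeR's quasi-likelihood test, and the sign was the other way in TPM, where DSS averaged 703468 ± 45331 and Control 688629 ± 23029 (SD, n = 3 each). That sign in TPM rested on DSS 3: without it the share of miR-143-3p differed by -1.12 percentage points. For DSS_RJA against DSS it was 0.19 ± 0.13 (adjusted p = 0.490, 95% interval -0.10 to 0.48), turning to -0.02 with the total without miR-143-3p as library size. For DSS_RJA against Control it was -0.15 ± 0.13 (adjusted p = 0.610), and this too had the other sign in TPM.

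miR-145a-5p, the guide arm that acts on Klf4 and Klf5, had 5898, 6533 and 6358 TPM in DSS_RJA, 10087, 8944 and 11647 TPM in DSS and 7034, 7614 and 5951 TPM in Control. Every DSS library was above every library of both other groups in TPM, and DSS_RJA overlapped Control. After TMM scaling it had 6623, 6108.5 and 6026 CPM in DSS_RJA, 9060, 8041 and 9828 CPM in DSS and 8108, 8452 and 6860 CPM in Control. On that scale DSS overlapped Control, and DSS_RJA lay below both other groups without overlap. The log2 fold change on the TMM scale was -0.52 ± 0.16 for DSS_RJA against DSS, with an unadjusted p of 0.00927 and an adjusted p of 0.186 by edgeR's quasi-likelihood test. It was 0.20 ± 0.16 for DSS against Control (adjusted p = 0.424) and -0.32 ± 0.16 for DSS_RJA against Control (adjusted p = 0.395).

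miR-143-5p, the lesser arm of miR-143, had 902, 673 and 711 reads in DSS_RJA, 813, 936 and 1075 in DSS and 1244, 1367 and 1181 in Control. This was 151, 109 and 115 TPM in DSS_RJA, 111, 145 and 142 TPM in DSS and 166, 165 and 167 TPM in Control. The Control libraries lay close together and above every DSS and DSS_RJA library, in TPM and in TMM-scaled CPM alike. The means in TMM-scaled CPM were 127 ± 36.9 in DSS_RJA, 117 ± 15.6 in DSS and 189 ± 5.09 in Control (SD, n = 3 each). The log2 fold change was -0.70 ± 0.21 for DSS against Control (edgeR adjusted p = 0.0749, 95% interval -1.17 to -0.22) and -0.58 ± 0.21 for DSS_RJA against Control (adjusted p = 0.285). Between DSS_RJA and DSS it was 0.12 ± 0.21 (adjusted p = 0.799, 95% interval -0.36 to 0.60), and that sign turned in TPM and with 3 other scalings. These 3 comparisons share libraries in pairs, so the values of 1 group enter 2 of them.

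miR-145a-3p, the lesser arm of miR-145a, had 541, 552 and 599 TPM in DSS_RJA, 545, 603 and 570 TPM in DSS and 445, 499 and 401 TPM in Control. In TPM the Control libraries were below all 6 others, and DSS_RJA and DSS overlapped. After TMM scaling all 3 groups overlapped, with mean CPM of 564 ± 45.7 in DSS_RJA, 504 ± 33.4 in DSS and 510 ± 45.7 in Control (SD, n = 3 each). The log2 fold change on that scale was -0.02 ± 0.16 for DSS against Control (edgeR adjusted p = 0.966, 95% interval -0.37 to 0.34), and in TPM it was 0.35. For DSS_RJA it was 0.16 ± 0.16 against DSS (adjusted p = 0.642), turning to -0.02 in TPM, and 0.15 ± 0.16 against Control (adjusted p = 0.667).

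None of the 4 arms passed an adjusted p of 0.05 in any comparison by edgeR's quasi-likelihood test. Over all 433 miRNAs tested, 17 did in DSS against Control (3.93%; 2.31% higher and 1.62% lower). When DSS_RJA was compared, 1 did against DSS (0.231%) and 0 did against Control (0%). At an unadjusted p under 0.05, miR-143-3p and miR-143-5p passed in DSS against Control, along with 143 (33%) of all miRNAs. At that threshold miR-145a-5p passed in DSS_RJA against DSS, where 61 (14.1%) of all did, and miR-143-5p passed in DSS_RJA against Control, where 62 (14.3%) did. DESeq2 called miR-143-5p in DSS against Control (log2 fold change -0.69 ± 0.26, adjusted p = 0.0464) and no arm in the other comparisons, and limma-voom called none. DESeq2 and limma-voom called 65 and 38 of the 433 in DSS against Control; for DSS_RJA they called 15 and 0 against DSS, and 2 and 0 against Control.

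Groups that do not overlap were common in the whole table, so the members' counts are set beside that background. In TMM-scaled CPM, 2 of the 4 arms did not overlap between DSS and Control (both arms of miR-143), where 41.6% of all miRNAs did not. Between DSS_RJA and DSS, 2 arms did not overlap (miR-143-3p and miR-145a-5p), against 13.2% of all miRNAs, and between DSS_RJA and Control 2 did not (miR-143-5p and miR-145a-5p), against 21.7%. In TPM the arms without overlap were 3 in DSS against Control (all but miR-143-3p, background 50.3%), 1 in DSS_RJA against DSS (miR-145a-5p, background 18.9%) and 2 in DSS_RJA against Control (miR-143-5p and miR-145a-3p, background 24.9%).

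Ratios of 2 arms counted in the same library need no scaling between libraries. Of the 111 precursors with both arms tested, miR-143 was the most one-sided. Its dominant arm had on average 5011 reads (geometric mean over the 9 libraries) for each read of the other, ahead of miR-192 (1820) and let-7i (957). miR-145a ranked 46th with 14.5, and in its case the dominant arm is 5p. The log2 arm ratio had an SD over the 9 libraries of 0.27 for miR-143 and 0.33 for miR-145a, ranks 94 and 81 from the most variable of the 111.

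For miR-143 there were 4559, 6516 and 6223 reads of the 3p arm per read of the 5p arm in DSS_RJA, 6156, 4635 and 5319 in DSS and 4282, 4201 and 3965 in Control. All Control libraries were below all others, and DSS_RJA and DSS overlapped. The 5p arm was 0.0153 to 0.0219% of the miR-143 reads in DSS_RJA, 0.0162 to 0.0216% in DSS and 0.0233 to 0.0252% in Control. With 673 to 1367 reads of the lesser arm in a library, the 95% Wilson intervals of the closest libraries on either side of that gap, 0.0205 to 0.0234% in DSS_RJA 1 and 0.0221 to 0.0247% in Control 1, overlapped; they cover counting error only. The log2 of the 3p/5p ratio differed by 0.36 ± 0.20 for DSS against Control (limma adjusted p = 0.445). For DSS_RJA it differed by 0.09 ± 0.20 against DSS (adjusted p = 0.873) and by 0.46 ± 0.20 against Control (adjusted p = 0.293).

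For miR-145a there were 10.9, 11.8 and 10.6 reads of the 5p arm per read of the 3p arm in DSS_RJA, 18.5, 14.8 and 20.4 in DSS and 15.8, 15.3 and 14.8 in Control. The DSS_RJA libraries were the 3 lowest of the 9, below both other groups without overlap, and DSS overlapped Control through its second library. The 3p arm made up 8.40, 7.80 and 8.61% of the miR-145a reads in DSS_RJA, 5.12, 6.32 and 4.66% in DSS and 5.95, 6.15 and 6.32% in Control. The lowest DSS_RJA library had a 95% Wilson interval of 7.55 to 8.05%, and the highest of the other 6, DSS 2, one of 6.13 to 6.51%. The log2 of the 3p/5p ratio was higher by 0.68 ± 0.18 in DSS_RJA than in DSS (95% interval 0.27 to 1.09), with an unadjusted p of 0.00443 and an adjusted p of 0.0984 by limma over the 111 precursors. Against Control the difference was 0.46 ± 0.18 (adjusted p = 0.237), and DSS differed from Control by -0.22 ± 0.18 (adjusted p = 0.572).

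Neither precursor's arm ratio passed an adjusted p of 0.05 in any comparison by limma. Of the 111, 0 passed in DSS against Control (0%), and for DSS_RJA 2 passed against DSS (1.8%) and 0 against Control (0%). At an unadjusted p under 0.05, 12 of the 111 (10.8%) passed in DSS against Control, 16 (14.4%) when DSS_RJA was set against DSS and 17 (15.3%) when it was set against Control, with miR-145a among both the 16 and the 17. Groups did not overlap for miR-143 when either treated group was set against Control, and for miR-145a when DSS_RJA was set against either other group. Over all 111 precursors, 20.7% did not overlap between DSS and Control, 12.6% between DSS_RJA and DSS, and 28.8% between DSS_RJA and Control. The exact two-sided permutation p was 0.1, the smallest 3 against 3 can give, for each of these 4 pairs without overlap, and 0.188 after adjustment over the 30 tests of single values made here.

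**Figure D2:**
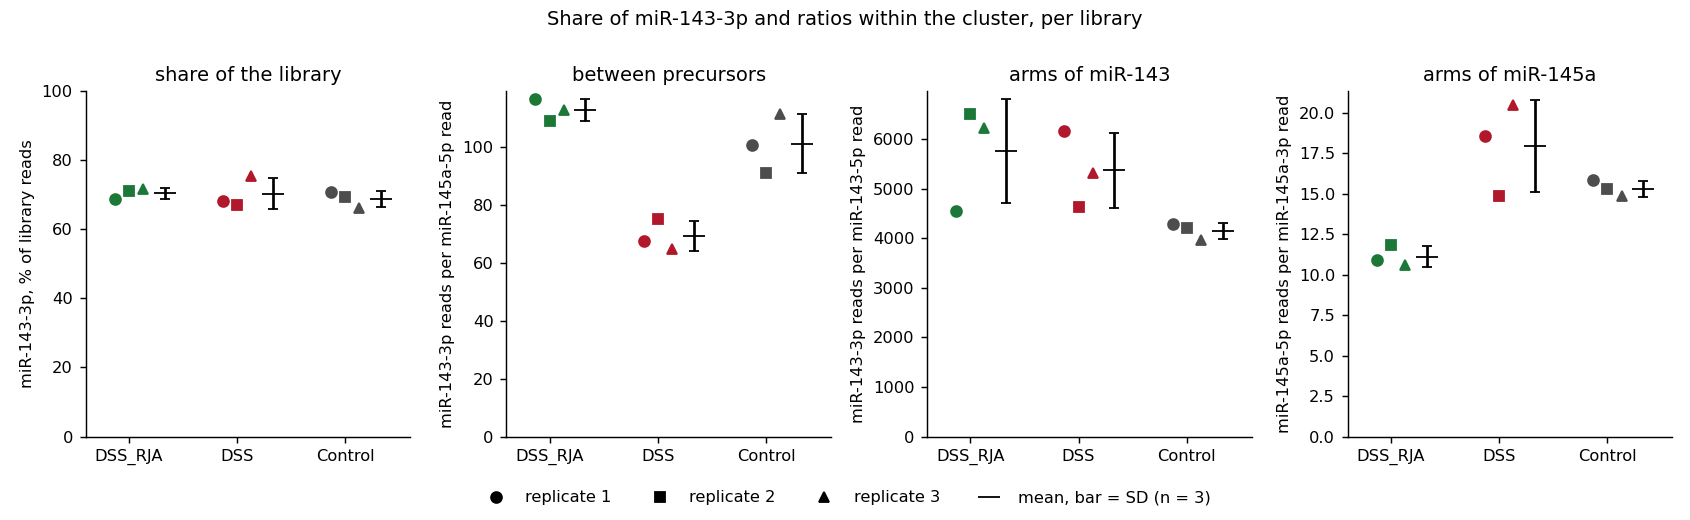
Share of miR-143-3p in the library (percent of reads) and 3 ratios of reads within the cluster, for DSS_RJA, DSS and Control; each point is 1 library and the bars are the mean and SD (n = 3). The share overlaps between all groups, the ratio of miR-143-3p to miR-145a-5p is lowest in the 3 DSS libraries (64.9 to 75.2), and the ratio of the miR-145a arms is lowest in the 3 DSS_RJA libraries (10.6 to 11.8).

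The 2 precursors come from 1 transcript, but the ratio of their guide arms differed between libraries by up to 1.80 times. Per read of miR-145a-5p there were 116, 109 and 113 reads of miR-143-3p in DSS_RJA, 67.7, 75.2 and 64.9 in DSS and 101, 91.1 and 112 in Control. The DSS libraries were the 3 lowest, without overlap with either other group, and DSS_RJA overlapped Control. Of all 432 other miRNAs set against miR-143-3p, 48.1% did not overlap between DSS and Control, 17.8% between DSS_RJA and DSS, and 23.1% between DSS_RJA and Control. The means were 113 ± 3.82 in DSS_RJA, 69.2 ± 5.32 in DSS and 101 ± 10.2 in Control (SD, n = 3 each), so the DSS mean was 0.685 times that of Control and the DSS_RJA mean 1.63 times that of DSS. The exact two-sided permutation p was 0.1, the smallest possible, for both of these differences and 0.2 for DSS_RJA against Control. With both arms of each precursor summed, the ratio of miR-143 to miR-145a reads was 107, 100 and 103 in DSS_RJA, 64.2, 70.4 and 61.8 in DSS and 94.8, 85.5 and 104 in Control, with the same order of groups.

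The ratio of the lesser arms ordered the groups in another way. There were 3.59, 5.06 and 5.19 reads of miR-145a-3p per read of miR-143-5p in DSS_RJA, 4.91, 4.16 and 4.01 in DSS and 2.69, 3.02 and 2.40 in Control. Here the Control libraries were the 3 lowest and DSS_RJA overlapped DSS. The exact two-sided permutation p was 0.1 for each treated group against Control and 0.8 between DSS_RJA and DSS. A p of 0.1 is the smallest 3 against 3 can give, and it became 0.188 after adjustment over the 30 tests of single values. How often such ratios between other miRNAs separate these groups was not tested.

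All other miRNAs were also tested relative to miR-143-3p, with each library size set to its miR-143-3p count. On this scale miR-145a-5p had a log2 fold change of 0.54 ± 0.17 for DSS against Control (edgeR adjusted p = 0.0576, 95% interval 0.16 to 0.93), with 166 of the 432 (38.4%) at an unadjusted p under 0.05. The median of all 432 miRNAs was 0.35 in that comparison, 64 of them passed (14.8%), and 271 of the other 431 had a lower value than miR-145a-5p, so much of the table lay on the same side. For DSS_RJA against DSS miR-145a-5p had -0.71 ± 0.17 (unadjusted p = 0.00219, adjusted p = 0.112, 95% interval -1.09 to -0.32). The median of all was -0.17, 1 of the 432 passed (0.231%), 80 (18.5%) had an unadjusted p under 0.05, miR-145a-5p was the 8th by p, and 48 of the other 431 had a lower value. For DSS_RJA against Control it had -0.17 ± 0.17 (edgeR adjusted p = 0.643), where the median of all was 0.19. At an adjusted p under 0.05, 0 of the 432 passed by edgeR (0%) and 0 by limma on log2 ratios. At an unadjusted p under 0.05, 73 (16.9%) passed by edgeR. As a share of the reads other than miR-143-3p, miR-145a-5p was 1.88, 2.26 and 2.25% in DSS_RJA, 3.18, 2.73 and 4.76% in DSS and 2.42, 2.48 and 1.77% in Control, highest in the 3 DSS libraries.

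How the libraries were scaled set the size, and for some arms the sign, of the group differences in level. Over 9 ways of scaling, the median of all 433 miRNAs in DSS against Control ran from 0.01 with TMM or TMMwsp to 0.29 with the total without the colon epithelium list, 0.39 with the library size alone and 0.50 with the total without miR-143-3p. The log2 fold change of miR-143-3p moved with it from -0.35 to 0.13. A change of scaling shifts all miRNAs by nearly the same amount. The distance from the median is therefore nearly fixed in advance and is no test of stability. Relative to the median of all miRNAs, miR-143-3p was at -0.37 to -0.35 in all 9. miR-143-5p ran from -0.70 to -0.23 and kept its sign, at -0.72 to -0.71 relative to the median. miR-145a-5p ran from 0.20 to 0.68, at 0.18 to 0.19 relative to the median, and passed with the library size alone (0.57 ± 0.17, edgeR adjusted p = 0.0428). miR-145a-3p ran from -0.02 to 0.44, at -0.06 to -0.03 relative to the median. The calls over all miRNAs moved likewise, with 10 higher (2.31%) and 7 lower (1.62%) by TMM, 64 higher and 9 lower by library size alone, 63 higher and 17 lower by the total without miR-143-3p, and 44 higher and 9 lower by the total without the epithelium list. RLE factors in edgeR gave 10 higher and 7 lower, and DESeq2, which uses similar factors but another test, gave 23 higher and 42 lower.

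In DSS_RJA against DSS the median of all miRNAs ran from -0.17 to 0.04 over the 9 scalings. Distances from the median are again nearly fixed by the arithmetic of scaling, here and in DSS_RJA against Control. miR-145a-5p ran from -0.74 to -0.51 and passed in none, at -0.57 to -0.54 relative to the median. miR-143-3p ran from -0.02 to 0.20 (0.15 to 0.17 relative to the median), miR-143-5p from -0.11 to 0.13 (0.05 to 0.10) and miR-145a-3p from -0.03 to 0.17 (0.13 to 0.14). In DSS_RJA against Control the median ran from -0.02 to 0.30, and miR-143-5p and miR-145a-5p were below it and miR-145a-3p above it in all 9, at -0.64 to -0.61, -0.36 to -0.35 and 0.11 to 0.12 relative to it. miR-143-3p was -0.19 to -0.18 relative to that median. No arm passed in this comparison under any of the 9.

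**Figure D3:**
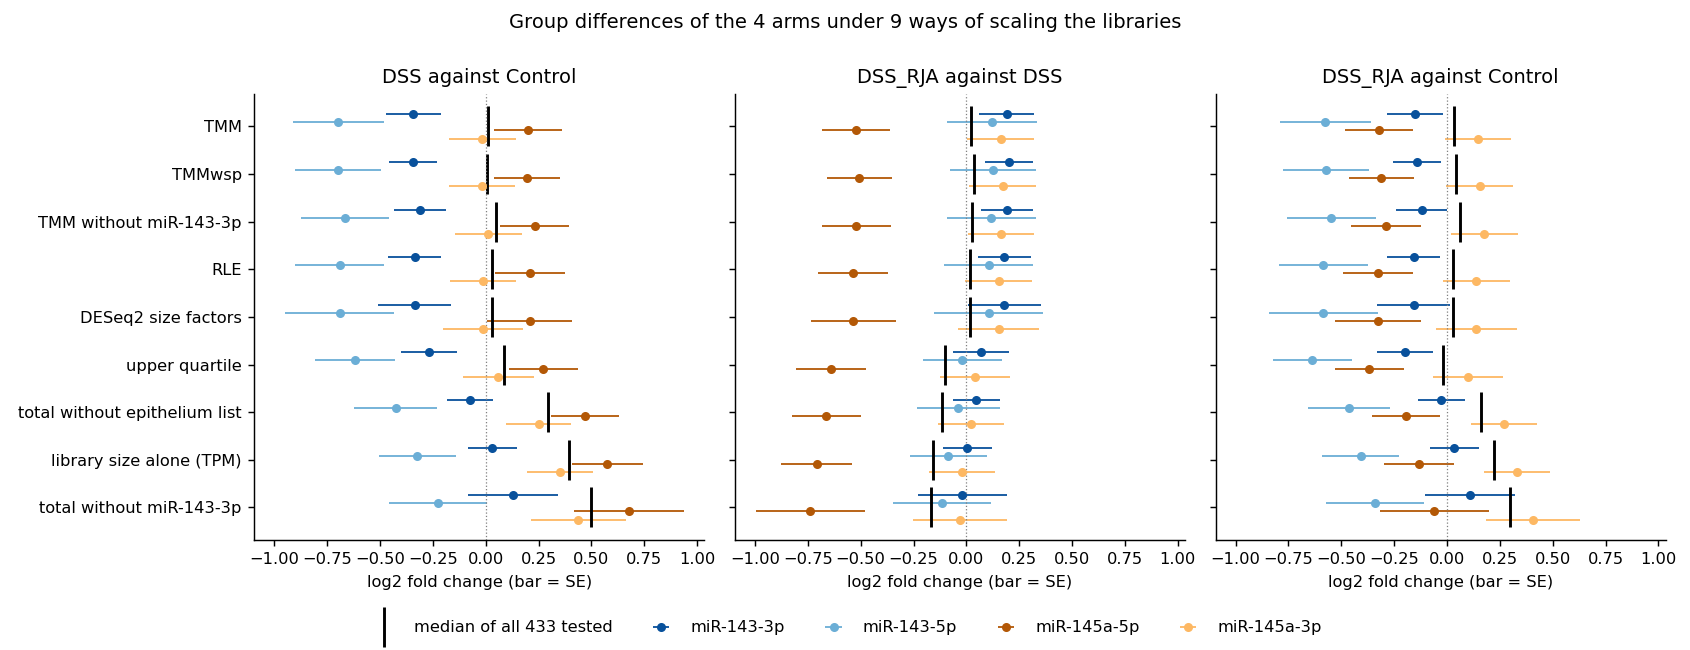
Log2 fold change (point) and SE (bar) of the 4 arms under 9 ways of scaling the libraries, for DSS against Control, DSS_RJA against DSS and DSS_RJA against Control; the black line is the median of all 433 miRNAs tested. Scaling shifts all miRNAs nearly alike, so the distances from the black line are nearly fixed in advance. The line itself moves in DSS against Control, from 0.01 by TMM to 0.50 by the total without miR-143-3p. There miR-143-3p is at -0.34 in the top line and 0.13 in the bottom one.

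miRNAs with a nearly constant ratio to a guide arm were sought among the 108 others with a mean of at least 100 CPM. For each, the SD of the log2 ratio over the 9 libraries was taken. A small SD means a nearly constant ratio, which is a description with no test, and libraries shared by both counts enter it. The share of miR-143-3p differed by at most 1.14 times between libraries, so a ratio to it is close to a scaled TPM. A small SD to miR-143-3p thus marks mainly a nearly constant TPM, and does not show that a miRNA followed miR-143-3p. The 5 closest to miR-143-3p were miR-24-2-5p (0.12), miR-3074-2-3p (0.13), miR-1a-3p (0.13), miR-1b-5p (0.13) and miR-25-3p (0.14), against a median of 0.34 over the 108. The other arms of the cluster had larger SDs, with miR-145a-3p 14th at 0.18, miR-143-5p 34th at 0.27 and miR-145a-5p 52nd at 0.33. The counts of miR-24-2-5p and miR-3074-2-3p differed by at most 1.11% in a library and those of miR-1a-3p and miR-1b-5p by at most 0.151%, so the members of each pair are uncertain as separate miRNAs; whether the same reads were counted under both names was not tested.

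The mature sequences show how the pair with nearly equal counts is related, and they are from RefSeq on GRCm38.p6, with the seed (bases 2 to 8 from the 5′ end) in capitals. miR-24-2-5p (chr8:84208839-84208860, plus strand) and miR-3074-2-3p (chr8:84208839-84208858, minus strand) are read from opposite strands of 1 place and share a run of 20 bases as reverse complements, while miR-25-3p (chr5:138165332-138165353, minus strand) comes from another chromosome.
miR-24-2-5p: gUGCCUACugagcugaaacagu
miR-3074-2-3p: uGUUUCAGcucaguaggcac
miR-25-3p: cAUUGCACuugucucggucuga

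**Figure D4:**
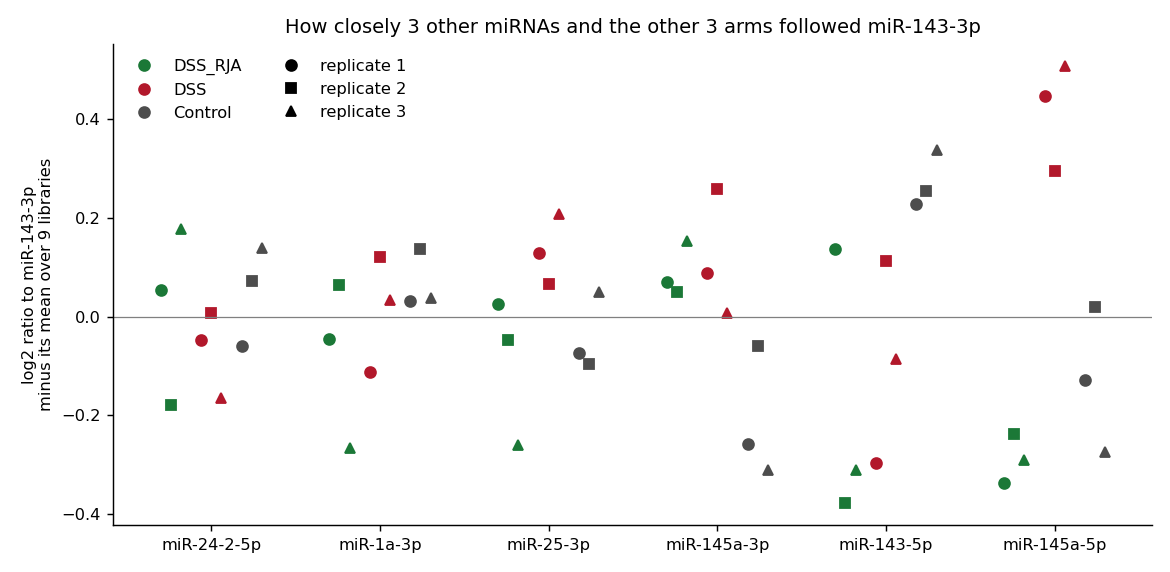
Log2 ratio to miR-143-3p, minus its mean over the 9 libraries, for 3 other miRNAs and for the other 3 arms of the cluster; each point is 1 library, coloured by group. Points near 0 mean a constant ratio to miR-143-3p, and so mainly a nearly constant TPM: miR-24-2-5p has an SD of 0.12, and miR-145a-5p one of 0.33, with its 3 DSS libraries on top.

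The miRNAs closest to miR-145a-5p were others: miR-181a-5p (SD 0.10), let-7a-5p (0.13), miR-23a-3p (0.15), let-7c-5p (0.15) and let-7d-5p (0.18), against a median of 0.40 over the 108. miR-145a-3p was 36th and miR-143-3p 41st, both at 0.33, and miR-143-5p was 70th at 0.47. Reads of miR-181a-5p ran from 3743 to 10176 in a library, and those of miR-145a-5p from 35303 to 88150. Of the 5, the 3 let-7 members carry the same seed and differ at few bases, so reads could be split between them. RefSeq on GRCm38.p6 places miR-181a-5p at chr1:137966468-137966490 (plus strand), let-7a-5p at chr13:48538239-48538260 (minus), miR-23a-3p at chr8:84208563-84208583 (plus), let-7c-5p at chr15:85706616-85706637 (plus) and let-7d-5p at chr13:48536078-48536099 (minus), with 1 of the 2 loci in the table given for miR-181a-5p and for let-7c-5p. Seeds are again in capitals.
miR-181a-5p: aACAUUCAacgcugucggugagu
miR-23a-3p: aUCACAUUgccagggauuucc
let-7a-5p: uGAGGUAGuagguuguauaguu
let-7c-5p: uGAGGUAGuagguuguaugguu
let-7d-5p: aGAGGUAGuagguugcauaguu

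The other miRNAs known from smooth muscle were present in every group. The list held 10 entries with the 4 arms, all tested and none at 0 in all libraries, and the 6 others summed to 3056 to 4020 CPM after TMM scaling in DSS_RJA, 3051 to 3731 in DSS and 4068 to 4522 in Control. The DSS libraries and the DSS_RJA libraries were all below the Control libraries in this sum. Most of it was miR-1a-3p, at a mean of 2966 CPM in DSS_RJA, 2771 in DSS and 3642 in Control, so the sum says little of the other 5. As a percentage of reads, the groups overlapped at 0.322 to 0.405% in DSS_RJA, 0.340 to 0.442% in DSS and 0.353 to 0.407% in Control. By edgeR none of the 10 passed in any comparison, and limma-voom called none. The counts and medians over the 10 include the 4 arms themselves. In DSS against Control 3 of the 10, both arms of miR-143 among them, had an unadjusted p under 0.05 by edgeR, near the 33% of all miRNAs. DESeq2 called 1, miR-143-5p, where it called 65 of all 433. The median log2 fold change on the TMM scale was -0.21, against 0.01 over all miRNAs. For DSS_RJA against DSS, 2 had an unadjusted p under 0.05 (miR-145a-5p among them, 14.1% of all miRNAs), DESeq2 called 0 and the median was 0.04, against 0.02 over all. For DSS_RJA against Control these values were 1 (miR-143-5p, 14.3% of all miRNAs), 0 and -0.15, against 0.03 over all. miR-1a-3p and miR-133a-3p, found in striated and smooth muscle, had -0.39 ± 0.17 and -0.13 ± 0.23 in DSS against Control. On the positive side were miR-490-3p at 0.27 ± 0.18 and miR-490-5p at 0.20 ± 0.34 in that comparison.

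Markers of other cells moved with the same groups, and their part in the levels and ratios of the 4 arms was not tested. The 10 colon epithelium miRNAs, with miR-192 and the miR-200 family, summed to 0.987 to 8.53% of the reads in DSS_RJA, 0.872 to 3.94% in DSS and 8.30 to 9.80% in Control, and DSS_RJA 1, at 8.53%, lay with the Control libraries. The 6 leukocyte miRNAs, with miR-223 and miR-142a, summed to 0.0212 to 0.147% in DSS_RJA, 0.127 to 0.245% in DSS and 0.0445 to 0.0570% in Control, with DSS_RJA 1 the lowest of the 9. Most of this sum was miR-150-5p, at a mean of 1543 TPM in DSS and 416 TPM in Control, where miR-223-3p had 89.6 and 11.0 TPM. The 6 fibroblast and mesenchyme miRNAs, with miR-199a and miR-214, summed to 0.303 to 0.428% in DSS_RJA, 0.433 to 0.690% in DSS and 0.307 to 0.376% in Control. Most of this sum was miR-10b-5p, at a mean of 4144 TPM in DSS and 2639 TPM in Control. The 3 DSS libraries were the highest, as they were for miR-145a-5p in TPM. Among them DSS 3 was the lowest in this sum but the highest for miR-145a-5p. Summed as TMM-scaled CPM the groups overlapped, at 3370 to 4053 in DSS_RJA, 3653 to 6202 in DSS and 3539 to 4330 in Control. None of the marker miRNAs was at 0 in all libraries. In DSS against Control, median log2 fold changes were -2.42 for epithelium, 1.62 for leukocytes, 0.41 for fibroblasts, -0.01 for the skeletal muscle miR-206-3p, -0.08 for the 2 endothelial and -0.33 for the 2 tested erythrocyte miRNAs. Of the fibroblast miRNAs 5 were positive and miR-199b-5p was at -0.30. The endothelial arms had opposite signs, miR-126a-3p at 0.28 and miR-126a-5p at -0.44. Their sum was 0.284 to 0.306% of the reads in Control, below DSS (0.371 to 0.562%) and DSS_RJA (0.355 to 0.560%). As TMM-scaled CPM this sum overlapped between DSS (3128 to 5047) and Control (3272 to 3523). In DSS_RJA against DSS the medians were 1.29 for epithelium, -0.75 for leukocytes, -0.43 for fibroblasts, 0.10 for skeletal muscle, 0.10 for endothelium and -0.17 for erythrocytes. For DSS_RJA set against Control they were -0.76 for epithelium, 0.76 for leukocytes, -0.06 for fibroblasts, 0.09 for skeletal muscle, 0.03 for endothelium and -0.51 for erythrocytes. There too the endothelial arms had opposite signs, miR-126a-3p at 0.39 and miR-126a-5p at -0.33.

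By edgeR no marker passed an adjusted p of 0.05 in any comparison, although 9 of 10 epithelial, 4 of 6 leukocyte and 3 of 6 fibroblast miRNAs had an unadjusted p under 0.05 in DSS against Control, where 33% of all miRNAs had. Among the 9 epithelial ones, miR-31-5p was on the other side from the rest, at a log2 fold change of 2.22 ± 0.84. It had few reads, with means of 1.08 TPM in DSS_RJA, 1.89 in DSS and 0.300 in Control. The Control libraries lay under the low-count filter's 1.42 CPM, so miR-31-5p was tested only through DSS-exposed libraries. Its p-value is therefore no independent support for a difference. DESeq2 called 8 of the epithelial, 4 of the leukocyte and 0 of the fibroblast miRNAs, and limma-voom 3, 2 and 0. Over all 433 miRNAs DESeq2 called 65 and limma-voom 38 in that comparison. With the epithelial list taken out of the total, miR-143-3p was 75.1, 75.1 and 72.5% of the remaining reads in DSS_RJA, 68.9, 70.0 and 76.6% in DSS and 77.6, 75.6 and 73.6% in Control. DSS averaged 71.8 ± 4.17% and Control 75.6 ± 2.04% (SD, n = 3 each), still overlapping through the third DSS library. The ratios within the cluster do not contain these reads, so this step leaves their values unchanged. Whether the mix of cells altered those ratios was not tested.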

How the data were processed

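Small RNA from mouse colon was ligated to adaptors (NEBNext kit), amplified by PCR, selected for inserts of 18 to 40 bp and sequenced as single reads of 50 bases, per the labels' protocols. Bowtie and DESeq are named in the submitters' processing notes, with neither version nor role. Genome build, miRNA annotation and the handling of multiply matching reads are among the points not given in the sources used here. Raw counts of reads for each mature miRNA were deposited, per the file headers. TPM were deposited beside them, which equalled each count per 1000000 reads of its library, with no term for length.

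Counts were tested in edgeR 4.0.16 (R 4.3.3) by the quasi-likelihood test with TMM scaling, fitted to all 9 libraries with 1 mean per group and 6 residual degrees of freedom. Low entries were removed with filterByExpr (minimum count 10), which left 433 of 1155, and p-values were adjusted over them by the Benjamini-Hochberg method at 0.05. The SE of a log2 fold change is its size over the square root of F. Arm ratios were fitted with limma 3.58.1 on log2 counts with a pseudocount of 0.5, and miR-145a-5p was also tested with the miR-143-3p count as library size. DESeq2 1.42.0 and limma-voom were alternatives. Single values were compared by exact two-sided permutation tests. PCR copies cannot be told from separate molecules here, so intervals cover counting error only. No 2 libraries of a group agreed within sampling noise.

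Besides the 4 arms and miR-145b, the text names the 5 most abundant entries, the 5 entries with the smallest SD of the log2 ratio to either guide arm, and members of marker lists. The members, lists and rules were chosen with earlier results of these data known. Other colon cells can express the marker miRNAs too.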

Additional observations from a re-analysis of the deposited data

How the results depend on the processing

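Of 195 values under other settings, 171 kept their direction and side of the threshold, and of 216 with 1 library left out, 199 did; the causes of the rest were not tested. The miR-143-3p level turned sign with the library size alone (0.031 in DSS against Control, 0.034 in DSS_RJA against Control) and with the total without miR-143-3p (0.13 and 0.11 in these 2, and -0.018 in DSS_RJA against DSS). In DSS against Control, miR-145a-3p became 0.35 by library size alone, 0.44 by the total without miR-143-3p, 0.25 by the total without the epithelium list, 0.059 by upper quartile, 0.012 by TMM computed without miR-143-3p (added after seeing the data), 0.0076 with no low-count filter and 0.0023 with only the pair of groups. In DSS_RJA against DSS it became -0.021 by library size alone and -0.030 by the total without miR-143-3p, and miR-143-5p became -0.085, -0.019, -0.11 and -0.037 by library size alone, upper quartile and the totals without miR-143-3p and without the epithelium list. Values that newly passed were miR-143-5p in DSS against Control by DESeq2 (-0.69) and with only the pair of groups (-0.68, edgeR adjusted p = 0.0181), miR-145a-5p in DSS against Control by library size alone (0.57), and the miR-145a arm ratio in DSS_RJA against DSS over 56 precursors with both arms at a mean count of at least 50 (0.68, limma adjusted p = 0.0496). Calls over all miRNAs in DSS against Control were 65 of 433 by DESeq2, 88 of 416 with only the pair of groups and 73 of 433 by library size alone. Of the 56 precursors, 2 passed in DSS_RJA against DSS. Without the epithelium list in the total, the difference in the miR-143-3p share became -3.80 percentage points in DSS against Control (1.48 otherwise) and -1.38 in DSS_RJA against Control (1.67 otherwise), and in DSS_RJA against DSS it was 2.42 (0.182 otherwise).

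Leaving out 1 library at a time gave these ranges for DSS against Control, DSS_RJA against DSS and DSS_RJA against Control. The miR-143-3p level ran from -0.35 to -0.27, 0.10 to 0.22 and -0.20 to -0.11, and miR-145a-5p from 0.15 to 0.32, -0.63 to -0.45 and -0.40 to -0.25. miR-143-5p ran from -0.75 to -0.59 (passing without DSS_RJA 1, at -0.65, and without DSS_RJA 3, at -0.66), -0.16 to 0.24 (negative without DSS_RJA 1) and -0.81 to -0.45. In DSS against Control, 47 of 453 miRNAs passed without DSS_RJA 1 and 90 of 449 without DSS_RJA 3. miR-145a-3p ran from -0.038 to 0.098 (positive in 6 of 9), 0.09 to 0.21 and 0.09 to 0.22. The miR-143 arm ratio ran from 0.26 to 0.46, -0.0066 to 0.26 (negative without DSS_RJA 2 and without DSS 2) and 0.36 to 0.62, and that of miR-145a from -0.35 to -0.12, 0.58 to 0.81 and 0.43 to 0.51. miR-145a-5p relative to miR-143-3p ran from 0.47 to 0.62 (passing without DSS_RJA 3, at 0.54), -0.77 to -0.66 and -0.24 to -0.09. Without DSS_RJA 3, 119 of 448 miRNAs passed relative to miR-143-3p in DSS against Control. The share of miR-143-3p ran from -1.12 to 3.05, -1.38 to 2.78 and 0.413 to 2.68 percentage points, turning sign in 5 cases: without DSS 3 in DSS against Control, and without DSS_RJA 2, DSS_RJA 3, DSS 1 or DSS 2 in DSS_RJA against DSS.

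Same-numbered libraries shared only a number in the labels, and whether they also shared a batch was not tested. Correlations of their deviations ran from -0.479 to 0.211 over 9 pairs. With the replicate number as a block, calls over all miRNAs in DSS against Control went to 4 (17 without it) and those relative to miR-143-3p to 18 (64 without it), and no member was called. Over all settings the calls ran from 3 to 90, 0 to 40 and 0 to 19 for levels, where edgeR with TMM gave 17, 1 and 0. Relative to miR-143-3p they ran from 7 to 119, 0 to 49 and 0 to 20. There edgeR with the miR-143-3p count as library size gave 64, 1 and 0. The miR-143-5p values rest on 673 to 1367 reads in a library.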
